A study of Mus musculus with 11 samples.

Results

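Kidneys of Col4a3 knockout mice given antimiR-21 were compared, gene by gene, with kidneys of Col4a3 knockout mice given PBS. The comparison rests on 8 of the 11 sequenced libraries of the series, 4 per group, chosen by their titles. All mice were of strain 129X1/SvJ, 5.5 weeks old, and the tissue was kidney. The KO antimiR-21 group (n = 4) was Col4a3-/- and received antimiR-21. The KO PBS group (n = 4) was Col4a3-/- and received PBS. The other 3 libraries, HET PBS, came from Col4a3+/- mice that also received PBS. They entered the fit to steady the estimate of spread and are quoted as a reference. Both knockout groups carry the same deletion and differ, by their labels, in the agent alone. The comparison group received PBS, and no group given a control oligonucleotide is among the 3. Not given in the sources used here were dose, schedule, the hour at which kidneys were taken and the sex of the mice. The labels do not say whether replicates came from separate mice, so the spread quoted is that between libraries.

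Col4a3 encodes the alpha3 chain of type IV collagen, a structural component of the mature glomerular basement membrane. Mice without it develop Alport nephropathy, in which a defective membrane leaks protein, tubules are injured and the interstitium scars. MiR-21 is a microRNA that is abundant in injured kidney. A microRNA guides the silencing complex to mRNAs through its seed, bases 2 to 8 at its 5′ end, and paired mRNAs are degraded or translated less. An antimiR is a chemically modified antisense oligonucleotide that binds the microRNA and keeps it from its targets, which would leave direct targets at a higher level. In mouse kidney, miR-21 has been linked to the repression of Ppara, the nuclear receptor that switches on fatty acid oxidation.

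Some properties of the libraries touch every value below. Depth was even among the knockouts, with 17.9 to 25.2 M counts per library. The Y-linked gene Ddx3y was read at 89.7 to 96.4 CPM (a locus's counts scaled to a common library total) in KO PBS replicates 3 and 4 and in KO antimiR-21 replicate 4, and at no more than 0.0501 CPM in the other 5 knockout libraries. The first principal component of all libraries, with 47% of the variance, divided them by this Y-linked status, and 2576 of 14380 loci (17.9%) were called for it, so the status was a term in the fit. Within the fit a log2 difference is therefore taken between libraries of like status. The joint locus Col4a3/Col4a4 does not check the genotype. Its level was 743, 607, 953 and 997 CPM in KO PBS and 515, 569, 809 and 665 CPM in KO antimiR-21, with 870 to 1271 CPM in HET PBS, and the knockout ranges overlapped. A joint locus, written with a slash, is a pair of names with identical counts in every library, whose reads cannot be assigned to either gene.

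Levels of circadian clock genes also differed between the groups. The hour of collection is not given, and whether this reflects a difference in clock phase was not tested. The clock is a loop in which Arntl and Npas2, of the morning arm, switch on the Per, Cry and Nr1d genes, the PAR-bZIP factors Tef and Hlf and other evening genes, which in turn repress the loop. A clock index, the mean log2 CPM of evening genes minus that of morning genes, was 1.90, 1.76, 1.57 and 1.66 in KO PBS replicates 1 to 4. It was 4.22, 4.19, 2.32 and 3.79 in KO antimiR-21 replicates 1 to 4. The groups did not overlap, 3 of the 4 treated libraries stood far above every KO PBS library, and KO antimiR-21 replicate 3 lay between. The HET PBS libraries, which share the PBS, spanned both levels with 3.58, 4.02 and 1.72.

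**Figure D1:**
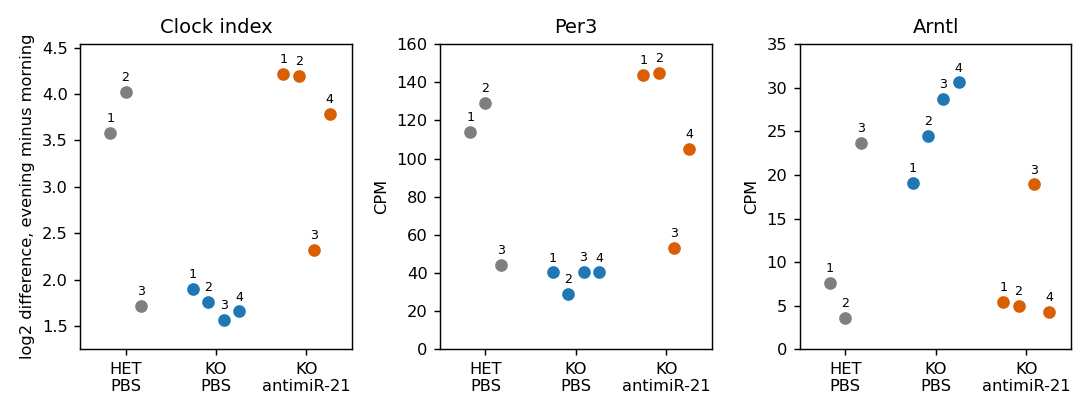
Clock index (log2, evening minus morning genes) and CPM of Per3 and Arntl in each of the 11 libraries, with groups on the horizontal axis and the replicate number above each point. The index is 1.57 to 1.90 in KO PBS and 2.32 to 4.22 in KO antimiR-21, where replicate 3 is the lowest.

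Across the transcriptome no single locus passed the adjusted threshold, yet a modest excess of small p-values leaned to genes that were higher with antimiR-21 and highly expressed. By edgeR's quasi-likelihood test with Benjamini-Hochberg adjustment at 0.05, 0 of 14380 loci were called higher (0%) and 0 lower (0%), and the smallest adjusted p was 0.111. Before adjustment, p was under 0.05 at 896 higher loci (6.23%) and 697 lower loci (4.85%). It was under 0.01 at 346 and 203 of these, and an absolute log2 difference of at least 1 was reached by 55 and 59 of them. The lean to higher values was strongest in abundant mRNAs. Among the 2485 loci with a mean of 100 CPM or more, 283 were higher and 108 lower at p under 0.05, against 75 and 62 of the 1961 loci under 1 CPM. Between these levels, 368 were higher and 306 lower of the 6430 loci at 10 to 100 CPM. The lean was reversed at 1 to 10 CPM, with 170 higher and 221 lower of 3504 loci. The CPM of all 4 treated libraries lay above all 4 KO PBS libraries at 336 loci (2.34%) and below them at 280 (1.95%). Taken within libraries of like Y-linked status, 730 loci (5.08%) were fully separated upward and 670 (4.66%) downward.

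The count of calls turned on the method and on 1 library. DESeq2 on the same design called 183 loci higher (1.47%) and 111 lower (0.893%) of the 12427 to which it gave an adjusted p. Without KO antimiR-21 replicate 3, edgeR called 205 loci higher (1.43%) and 89 lower (0.619%), and 130 of the higher and 50 of the lower loci were shared with DESeq2's calls. Leaving out KO PBS replicate 4 gave 1 call, the joint locus 9530052E02Rik/Irs2, which holds the insulin receptor substrate gene Irs2 and was named after its value was seen. Its log2 difference was 1.34 (adjusted p = 0.00499 by edgeR) against 1.03 (adjusted p = 0.234) with all libraries.

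AntimiR-21 binds miR-21, so its direct effects would fall on mRNAs that pair with the miR-21 seed. Matches to the seed were sought in the longest annotated 3′ UTR of each gene (GENCODE vM21, GRCm38). The letters searched, on the mRNA strand only, were ATAAGCT (the 7-base match that pairs seed bases 2 to 8), TAAGCTA (the 7-base match with an A after base 2 to 7 pairing) and both joined as ATAAGCTA, the 8-base match, which contains each of them. Of 10367 loci with a UTR to search, joint loci left out, 905 (8.73%) held ATAAGCT and 274 (2.64%) the 8-base form. Among genes of small p, matches occurred on both sides. The sites below are those of the 6 genes described further on that hold ATAAGCT as single loci. Acsm5, a medium-chain acyl-CoA synthetase, and Vegfc, a lymphatic growth factor, were added after their values were seen, as 8-base loci of small p in each direction. Matched letters are in capitals, the run is 5′ to 3′ on the mRNA strand, and the coordinates are those of the capitals.

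Fmo2, higher, chr1:162875235-162875242, minus strand: ccgcactgcaaaagATAAGCTAtg
Acsm5, higher, chr7:119543411-119543418, plus strand: tggggagggggaacATAAGCTAca
Bhlhe41, higher, chr6:145861331-145861338, minus strand: tttagtatgtaaagATAAGCTAga
Rnf167, higher, chr11:70651276-70651282, plus strand: ctttttccagtctaATAAGCTga
Tln2, higher, chr9:67218335-67218341, minus strand: tcttgaaggtcatcATAAGCTga
Vegfc, lower, chr8:54186448-54186455, plus strand: atgaaaattgtattATAAGCTAtg
Slc39a14, lower, chr14:70303644-70303650, minus strand: ccaaagagatacagATAAGCTgg
Kif14, lower, chr1:136530731-136530737, plus strand: gtacccttagccaaATAAGCTgt

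Acsm5 read 267 to 314 CPM in KO PBS and 353 to 445 CPM in KO antimiR-21, while Vegfc read 8.69 to 10.1 CPM and 6.10 to 7.90 CPM. The same site thus occurred in genes that were separated upward and downward. As a class, loci with a match did not stand above loci without one in this fit. The median log2 difference was -0.013 over the 905 loci with the 7-base seed match, -0.015 over the 274 with the 8-base match, -0.025 over the 212 with 2 or more matches of any kind and -0.006 over the 8977 with none. Of the 905 loci, 6.63% were higher and 4.64% lower with an unadjusted p under 0.05, beside 6.15% and 5.59% of those without a match. UTRs with a match were longer, with a median of 2975 bases against 1217. By library, the median deviation of the 905 loci from their mean over the 8 libraries ran from -0.018 to 0.037 in KO PBS and from -0.035 to 0.038 in KO antimiR-21, so the groups overlapped. Restricting to loci with a mean of at least 5 CPM left 746 with the match at a median of -0.006 and 7103 without a match at -0.005. With the clock index as a term, a fit described at the end, the order was the reverse. Medians were then 0.033, 0.050 and 0.067 for the 7-base match, the 8-base match and 2 or more matches, against -0.014 for none. At a mean of at least 5 CPM they were 0.045, 0.058 and 0.083 against -0.007. Neither order was tested. The median standard error of a single locus was 0.129 without the term and 0.177 with it. That error does not measure the uncertainty of a median over many loci.

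**Figure D2:**
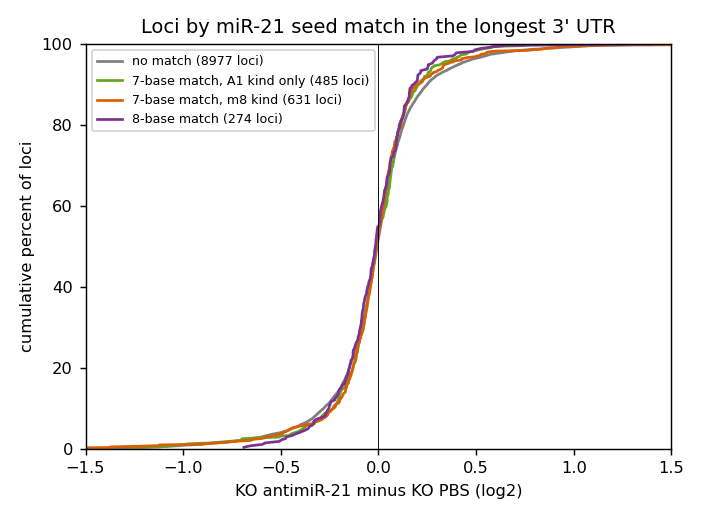
Cumulative percent of loci (vertical axis) by log2 difference, KO antimiR-21 minus KO PBS (horizontal axis), for 8977 loci without a miR-21 seed match and for 485 loci with only the 7-base match ending in A, 631 with the 7-base seed match and 274 with the 8-base match. The 4 curves cross near 0, and 28 loci beyond 1.5 on either side lie outside the axis.

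A list of 19 measured genes reported elsewhere as miR-21 targets gave the same picture, with 11 higher, 8 lower and a median log2 difference of 0.01. Only the joint locus Cdpf1/Ppara was higher and Tpm1 lower at an unadjusted p under 0.05. Cdpf1/Ppara read 174, 189, 156 and 145 CPM in KO PBS and 311, 324, 224 and 248 CPM in KO antimiR-21. All 4 treated libraries were above all 4 controls, replicate 3 lowest among them, for a log2 difference of 0.68 ± 0.13 (SE, adjusted p = 0.123 by edgeR). HET PBS replicate 3, with its low clock index, read 179 CPM where the other HET PBS libraries read 263 CPM. The longest 3′ UTR used for Ppara holds 1 copy of the 8-base match. Tpm1, an actin-binding tropomyosin, read 128 to 209 CPM in KO PBS and 124 to 153 CPM in KO antimiR-21, and the groups overlapped (log2 difference -0.28 ± 0.11, SE, adjusted p = 0.369 by edgeR).

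The genes of smallest p are described next by what they do, the 15 highest-ranked in each direction together with the 5 of largest difference among loci with separated groups. None passed the adjusted threshold of edgeR's test as described above. The 15 higher loci all had an adjusted p of 0.111, all 15 were called by DESeq2, and all 15 by edgeR without KO antimiR-21 replicate 3. Over all loci with an adjusted p, DESeq2 called 1.47% higher, and edgeR without that replicate 1.43%. Within libraries of like Y-linked status, every treated library was above every KO PBS library at all 15, beside 5.08% of all loci. Without regard to that status the groups were separated at 10 of the 15, beside 2.34% of all loci. The loci of both directions were ranked on these same libraries, so counts of this kind are not independent support.

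Several of the higher loci encode enzymes of amino acid, sterol and xenobiotic metabolism. Hpd, the 4-hydroxyphenylpyruvate dioxygenase of tyrosine breakdown (chr5:123171807-123182727), gave the largest difference. It read 254, 337, 44.0 and 66.3 CPM in KO PBS and 1310, 1092, 583 and 222 CPM in KO antimiR-21. The 2 KO PBS libraries with Y-linked reads were the lowest of the 4, and the 1 treated library with Y-linked reads was the lowest of its group, so the difference is seen within each status. The fitted difference was 3.59-fold (log2 1.84 ± 0.29, SE). Ftcd, which handles the last steps of histidine breakdown, went the other way with Y-linked status, at 3.21, 3.91, 15.2 and 8.77 CPM in KO PBS and 6.01, 7.85, 6.87 and 27.3 CPM in KO antimiR-21, a fitted difference of 2.16-fold.

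Cndp1, the carnosine-cleaving dipeptidase, read 32.1, 35.8, 137 and 104 CPM in KO PBS and 67.8, 70.7, 55.4 and 166 CPM in KO antimiR-21 (log2 difference 0.79 ± 0.14, SE). Its levels also split by Y-linked status in both groups. Dpyd, which starts pyrimidine breakdown, was separated outright, with 88.9 to 107 CPM in KO PBS and 118 to 141 CPM in KO antimiR-21 (log2 difference 0.39 ± 0.075, SE). Fmo2, a flavin-containing monooxygenase and the gene of the first site shown above, read 611, 690, 430 and 466 CPM in KO PBS and 942, 944, 793 and 657 CPM in KO antimiR-21 (1.41-fold, log2 0.49 ± 0.084, SE). The treated library nearest to the controls was replicate 4, which carries Y-linked reads.

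A pair of mitochondrial P450 enzymes that hydroxylate vitamin D and sterols was higher in every treated library. Cyp27a1, the sterol 27-hydroxylase (chr1:74713574-74737892), read 34.3, 35.4, 33.7 and 35.1 CPM in KO PBS and 65.2, 67.5, 42.6 and 67.8 CPM in KO antimiR-21. KO PBS was tight, and treated replicate 3 stood alone between the groups (log2 difference 0.82 ± 0.15, SE). Cyp27b1, the renal 1-alpha-hydroxylase that makes active vitamin D, read 9.69 to 10.7 CPM in KO PBS and 21.9, 33.8, 15.8 and 53.5 CPM in KO antimiR-21. Its difference of 3.16-fold was the largest among named genes with separated groups, a mean of at least 1 CPM and an unadjusted p under 0.01 (log2 1.66 ± 0.38, SE, adjusted p = 0.175 by edgeR). HET PBS read 8.98 to 25.5 CPM, the lowest again in replicate 3.

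Lipid regulators and membrane genes were among the rest. Insig1, an endoplasmic reticulum brake on sterol synthesis, read 29.4 to 43.6 CPM in KO PBS and 55.9 to 62.5 CPM in KO antimiR-21 (log2 difference 0.64 ± 0.12, SE), with replicate 3 inside the treated range. Gjb1, the gap junction protein connexin 32, read 33.9 to 49.7 CPM against 52.7 to 71.4 CPM. Tln2, a talin that links integrins to actin, read 277, 296, 289 and 318 CPM in KO PBS and 434, 436, 399 and 387 CPM in KO antimiR-21 (1.41-fold). It was among the higher loci with little spread in either group. The ribonuclease locus Ang/Rnase4 read 108 to 173 CPM against 197 to 290 CPM (1.75-fold). Glt1d1, a glycosyltransferase-domain gene, read 9.68, 8.92, 27.0 and 23.3 CPM in KO PBS and 18.7, 18.7, 14.5 and 36.4 CPM in KO antimiR-21. Its groups overlapped and split by Y-linked status, and its fitted log2 difference of 0.74 was 0.35 without the Y-linked term. Likewise Cndp1 was at 0.22 and Ftcd at 0.62 without that term.

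Rnf167, Itch and Fbxo21 also belong to the 15 higher loci. Rnf167, a membrane-bound RING ligase (chr11:70647235-70651421), had the smallest p of all loci named here. It read 102, 115, 116 and 102 CPM in KO PBS and 173, 158, 138 and 164 CPM in KO antimiR-21, with groups apart and replicate 3 again the lowest treated library (log2 difference 0.55 ± 0.084, SE). Itch, a HECT ligase, read 161, 166, 171 and 165 CPM against 206, 225, 196 and 219 CPM (1.29-fold). Fbxo21, the substrate-binding part of an SCF ligase, read 76.3 to 91.9 CPM against 103 to 127 CPM (1.34-fold).

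**Figure D3:**
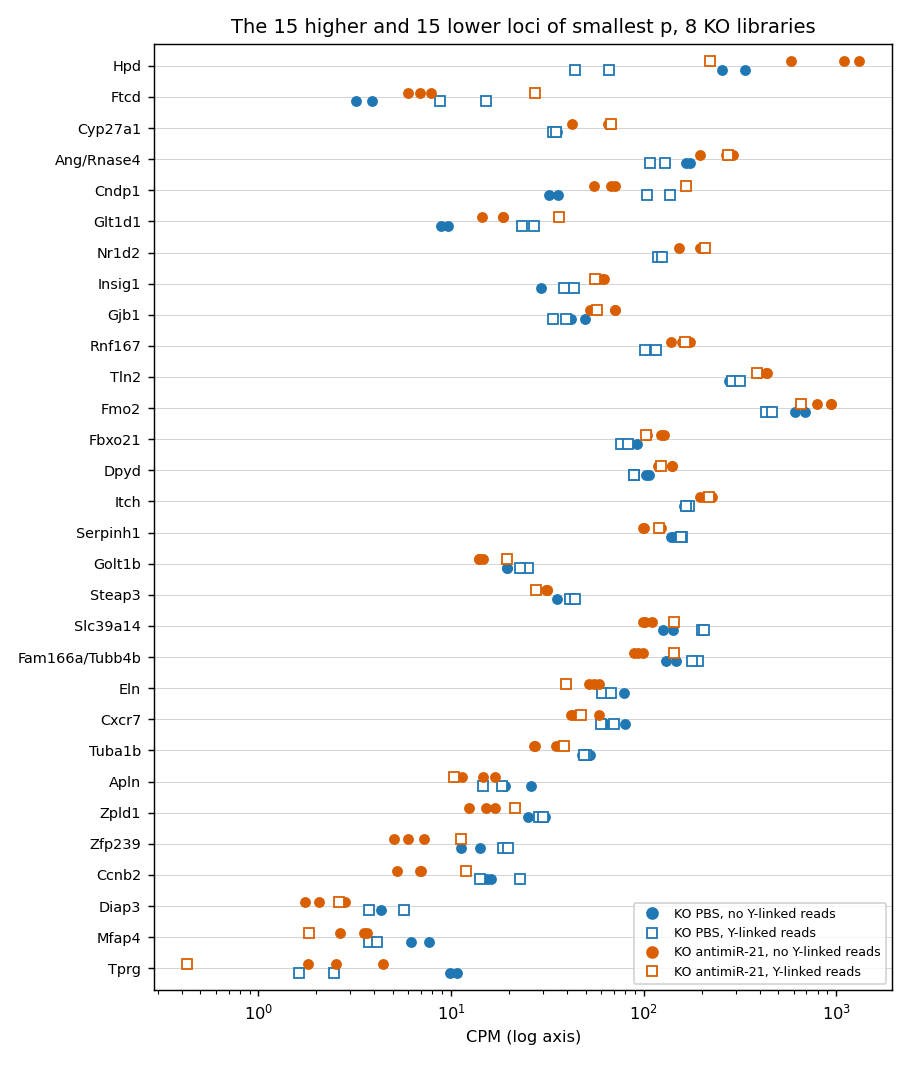
CPM (horizontal log axis) of the 15 higher and 15 lower loci of smallest p in each of the 8 knockout libraries, 1 point per library, with squares for libraries with Y-linked reads. Hpd is at the top with 44.0 to 337 CPM in KO PBS and 222 to 1310 CPM in KO antimiR-21, and Tprg is at the bottom.

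Core clock genes were among the largest differences of the higher set. Nr1d2, the repressor REV-ERB beta, read 118, 121, 119 and 124 CPM in KO PBS and 200, 196, 153 and 208 CPM in KO antimiR-21 (log2 difference 0.66 ± 0.11, SE). Per3, a period gene, read 40.3, 29.0, 40.4 and 40.3 CPM in KO PBS and 144, 145, 53.2 and 105 CPM in KO antimiR-21 (2.94-fold). Treated replicate 3 sat close to KO PBS in Per3 and about midway between the groups in Nr1d2. Bhlhe41, a clock repressor with the 8-base site shown above, read 2.17 to 4.54 CPM against 5.65 to 13.6 CPM (2.64-fold), and Cry2/D930015M05Rik read 20.7 to 29.7 CPM against 33.2 to 71.1 CPM. The locus Car11/Sphk2 followed the same shape with 109, 101, 111 and 110 CPM against 326, 350, 145 and 302 CPM.

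Of 10 evening genes measured, 10 were higher, with a median log2 difference of 0.93 beside 0.00 over all loci. An unadjusted p under 0.05 was reached by 8 of them, beside 6.23% of all loci higher at that p. Of 5 morning genes 4 were lower, with a median of -1.08. Arntl, the partner of Clock, read 19.1, 24.5, 28.7 and 30.6 CPM in KO PBS and 5.47, 4.97, 18.9 and 4.28 CPM in KO antimiR-21. Replicate 3 was the only treated library near the controls (log2 difference -1.54 ± 0.72, SE, adjusted p = 0.496 by edgeR). Npas2 had the largest difference, -1.66 ± 0.81 (SE, adjusted p = 0.521 by edgeR). Cry1 was counted with the morning genes here, although Cry genes are among those that Arntl and Npas2 switch on. It was 0.56 higher on the log2 scale.

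Genes of cell division were among the lower loci, and made up the 5 of largest difference among those with separated groups. Ccnb2, a mitotic cyclin (chr9:70407692-70421547), read 16.1, 15.3, 22.8 and 14.2 CPM in KO PBS and 5.25, 6.96, 6.87 and 11.9 CPM in KO antimiR-21, a difference of 2.07-fold (log2 -1.05 ± 0.22, SE, adjusted p = 0.139 by edgeR). Its groups did not overlap. Ccnb1, the other B-type cyclin, read 7.34, 7.21, 12.7 and 7.69 CPM against 1.59, 1.77, 3.14 and 4.82 CPM, the largest difference under the same limits in the lower set (2.80-fold). Here the treated library nearest to the controls was replicate 4, not replicate 3.

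Other division genes behaved alike. Hmmr, a spindle-associated hyaluronan receptor, read 13.4, 13.4, 21.1 and 13.4 CPM in KO PBS and 3.06, 4.64, 7.17 and 8.88 CPM in KO antimiR-21. Diap3, an actin-nucleating formin needed in cytokinesis, read 3.73 to 5.69 CPM against 1.75 to 2.82 CPM (2.07-fold). The kinesin Kif14, Fam83d and Depdc1a were lower by 2.59-fold, 2.48-fold and 2.56-fold at levels under 5 CPM, each with separated groups. Of 34 genes of mitosis and the spindle that were measured, 34 were lower, with a median log2 difference of -0.96. An unadjusted p under 0.05 was reached by 28 of them, beside 4.85% of all loci lower at that p. DESeq2 called 19, beside 0.893% called lower of all loci to which it gave an adjusted p. Relative to the KO PBS mean, the list's median was -0.03, -0.13, 0.32 and -0.19 in the KO PBS libraries and -1.68, -1.37, -0.72 and -0.46 with antimiR-21. It was -0.77, -0.80 and 0.21 in HET PBS. The 2 HET PBS libraries of high clock index were thus at or below treated replicates 3 and 4. Genes of DNA replication, which act just before mitosis, differed less, with 20 of 26 lower, 4 of them at p under 0.05, and a median of -0.20. In whole kidney, fewer dividing cells and less of these mRNAs per cell cannot be told apart.

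Matrix and collagen-handling genes came next among the lower loci. Mfap4, a microfibril-associated glycoprotein (chr11:61485431-61488900), read 7.67, 6.21, 3.74 and 4.11 CPM in KO PBS and 3.66, 2.65, 3.53 and 1.82 CPM in KO antimiR-21, a difference of 2.12-fold (log2 -1.08 ± 0.18, SE, adjusted p = 0.111 by edgeR). The 2 groups nearly touched, since the KO PBS libraries with Y-linked reads were low. Eln, elastin, read 61.1 to 78.6 CPM against 39.5 to 58.3 CPM (1.40-fold). Serpinh1, the collagen chaperone HSP47, read 142, 139, 159 and 157 CPM against 101, 99.3, 123 and 120 CPM (1.30-fold). Both were separated between groups, and in Serpinh1 treated replicates 3 and 4 were the nearer to the controls.

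The wider matrix list leaned the same way without separating the libraries. Of 33 measured genes of interstitial matrix 29 were lower, 9 at an unadjusted p under 0.05 (beside 4.85% of all loci). The median log2 difference was -0.30. Col1a1 (-0.65), Col3a1 (-0.68), the fibronectin locus Apol7d/Fn1 (-0.66) and Lum (-0.59) were among those 9, and Dcn was 0.38 higher. The list's median deviation was 0.52, -0.31, -0.29 and 0.14 in KO PBS and -0.06, -0.27, 0.16 and -0.53 in KO antimiR-21, so the groups overlapped and KO PBS replicate 1 was the highest library. Of 28 genes of tubular injury 23 were lower, 8 at p under 0.05 (beside the same 4.85%), with a median of -0.33. Itgb6, an epithelial integrin chain, was the lowest of them at 153, 156, 150 and 160 CPM in KO PBS and 67.2, 63.5, 129 and 68.6 CPM in KO antimiR-21, with treated replicate 3 near the controls.

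The remaining lower loci encode tubulins, transporters, signalling proteins and genes of less settled role. Tuba1b, an alpha tubulin, read 47.9 to 52.8 CPM in KO PBS and 27.2, 27.0, 35.2 and 38.6 CPM in KO antimiR-21 (1.52-fold). The joint locus of the beta tubulin Tubb4b with Fam166a read 130 to 191 CPM against 88.7 to 144 CPM. Slc39a14, a zinc and iron importer, and Steap3, an endosomal iron reductase, were each lower by 1.34-fold. Steap3 was at 35.3 to 44.1 CPM in KO PBS and 27.5 to 31.6 CPM in KO antimiR-21, and here replicate 3 sat with replicates 1 and 2. Apln, the peptide hormone apelin, and Cxcr7, an atypical chemokine receptor, were lower by 1.58-fold and 1.47-fold. Golt1b, a Golgi trafficking gene, read 19.5 to 25.2 CPM against 13.9 to 19.6 CPM. Zfp239, a zinc finger gene, and Zpld1 were lower by 1.97-fold and 1.66-fold. Tprg had the largest difference at 9.82, 10.7, 1.63 and 2.48 CPM against 1.80, 2.54, 4.42 and 0.428 CPM (3.91-fold), again split by Y-linked status in both groups. Of the 15 lower loci, with adjusted p from 0.111 to 0.144 by edgeR, DESeq2 called 15, edgeR called 11 without KO antimiR-21 replicate 3, and 9 had separated groups. The shares over all loci, for DESeq2 those given an adjusted p, were 0.893%, 0.619% and 1.95%.

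**Figure D4:**
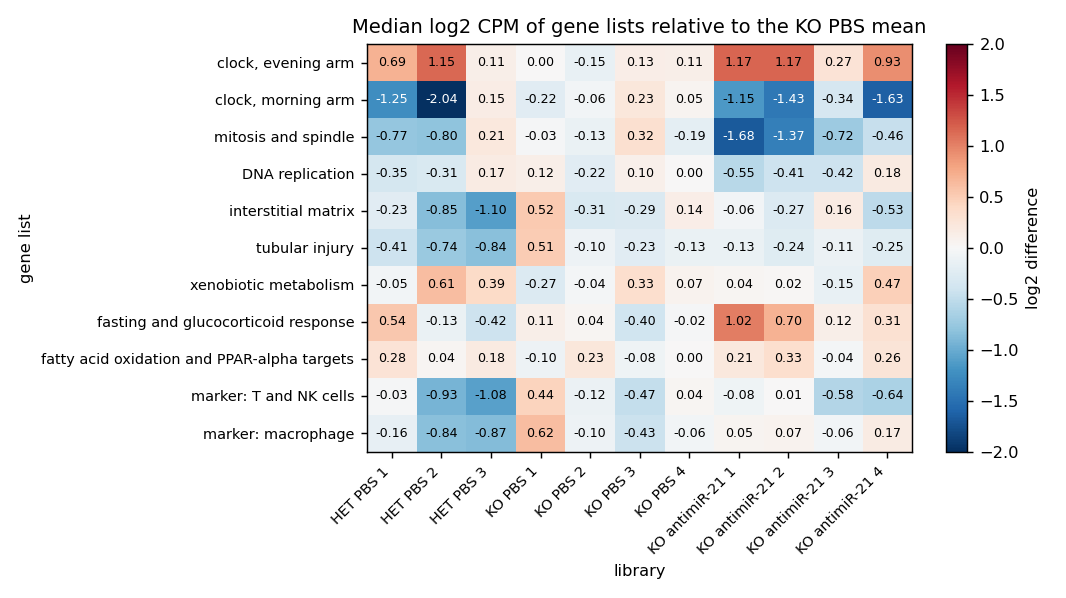
Median log2 CPM of the gene lists shown, relative to the KO PBS mean of each gene, in the 11 libraries (columns), with red above and blue below. Some lists, adipocyte markers among them, are left out. The mitosis list is -0.19 to 0.32 in KO PBS and -1.68 to -0.46 with antimiR-21, while the matrix and injury lists overlap between these groups.

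Gene families read from symbols alone, without a chosen list, placed the same kinds of genes at the ends. Among letter stems shared by at least 15 tested loci, Cyp (cytochrome P450) had the highest median log2 difference, 0.21 over 40 loci, with 15 higher and 0 lower at an unadjusted p under 0.05. Aldh, the aldehyde dehydrogenases, followed with 0.13 over 18 loci, 7 of them higher (38.9%) and 1 lower (5.56%) at that p. The 275 solute carriers (Slc) had a median of 0.03, with 41 higher (14.9%) and 19 lower (6.91%). At the other end were Adamts proteases, -0.22 over 16 loci with 5 lower (31.2%) and 0 higher. The collagens (Col) had -0.20 over 33 loci, with 7 lower (21.2%) and 2 higher (6.06%). The kinesins (Kif) had -0.11 over 32 loci, with 8 lower (25.0%) and 0 higher. Ribosomal protein genes lay near 0, with medians of 0.01 for 45 Rpl and 0.03 for 43 Rps loci and 0 at that p in either direction.

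Metabolic lists differed in direction. Of 29 genes of xenobiotic metabolism 24 were higher, 13 at an unadjusted p under 0.05 (beside 6.23% of all loci), with a median of 0.26. Cyp2e1, a P450 of the proximal tubule, was among them at 143, 103, 819 and 574 CPM in KO PBS and 274, 255, 152 and 1402 CPM in KO antimiR-21. Its range followed Y-linked status more than treatment. Of 27 genes of fatty acid oxidation and PPAR-alpha targets 20 were higher, 8 at p under 0.05, and the median was 0.17. Cpt1a, the gate for fatty acids into mitochondria, was 0.38 higher on the log2 scale, and Vnn1 0.52. Of 30 nuclear genes of oxidative phosphorylation 12 were higher and 18 lower, 0 and 1 at that p, with a median of -0.02. Sterol synthesis had 7 higher and 14 lower (median -0.03), fatty acid synthesis 9 and 10 (-0.07), and Nrf2 and glutathione genes 6 and 13 (-0.05). A fasting and glucocorticoid list had 15 of 18 higher and a median of 0.53, led by Angptl4, an inhibitor of lipoprotein lipase, at 32.8 to 75.3 CPM in KO PBS and 170, 127, 44.4 and 158 CPM in KO antimiR-21.

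Markers of cell types differed unevenly, and those of the proximal tubule leaned higher as the fatty acid oxidation list did. Of 16 proximal tubule markers, 11 were higher, 7 at p under 0.05 (beside 6.23% of all loci), with a median of 0.17. The proximal tubule is the cell type in which most of these metabolic genes are expressed. The summed level of its markers was 22158 to 39503 CPM in KO PBS and 26240 to 42601 CPM in KO antimiR-21. Of 22 macrophage markers measured, 7 were higher and 15 lower, 2 and 0 of them at p under 0.05, with a median of -0.08. Cd14 was the lowest at -0.49 on the log2 scale. The summed level of the list was 412 to 591 CPM against 463 to 497 CPM. The list's members higher at an unadjusted p under 0.05 were Emr1, which encodes F4/80 and was named after its value was seen, by 0.77 on the log2 scale (called by DESeq2, adjusted p = 0.0326) and Ms4a7, a macrophage membrane protein, at 1.40 to 2.89 CPM in KO PBS and 3.32 to 4.53 CPM in KO antimiR-21. T and NK cell markers had 9 of 11 lower and a median of -0.46, but summed to 45.3 to 67.7 CPM against 45.1 to 54.5 CPM, and 7 of the 18 on the list were too low to test. Only 4 of 12 neutrophil markers could be tested. All 10 adipocyte markers were higher in the fit, 2 at p under 0.05, and summed to 222 to 284 CPM against 436, 324, 224 and 307 CPM. Relative to the KO PBS mean, the list's median was -0.12, -1.04, -0.69 and 2.2 in the KO PBS libraries. It was 3.51, 1.16, -1.55 and -0.98 with antimiR-21, so the groups overlapped. Ucp1, of brown fat, was 17.1 CPM in KO antimiR-21 replicate 1, 4.50 CPM in KO PBS replicate 4 and at most 2.15 CPM elsewhere among the knockouts. The part of these cell types in the gene differences was not tested.

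Loci that differed with treatment also differed between HET PBS libraries of unlike clock index. HET PBS replicates 2 and 3 both carry Y-linked reads and both received PBS, but have indices of 4.02 and 1.72. These libraries also differ in depth, with 39.7 M and 24 M counts after joining. They were set against each other after these indices were seen, as 1 library each and with no test. In a fit of the 8 knockout libraries alone, which uses no HET PBS library, 320 loci were higher with antimiR-21 at an unadjusted p under 0.01, and 288 of them (90%) were higher in HET PBS replicate 2 than in replicate 3, as were 50.5% of all loci. Of 210 lower loci, 198 (94.3%) were lower in replicate 2, against 49.5% of all loci. The median differences between these HET PBS libraries were 0.38 and -0.65, beside treatment medians of 0.55 and -0.78. Across the 14380 loci, which are not independent, the Pearson correlation of the 2 differences was 0.37. Of the loci named above, 15 of 15 higher and 14 of 15 lower followed the same order between these HET PBS libraries.

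**Figure D5:**
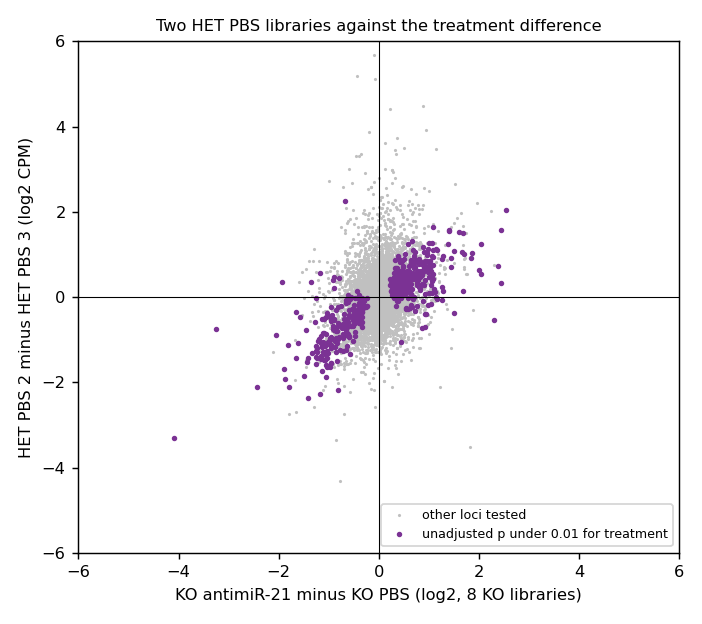
Log2 CPM of HET PBS replicate 2 minus replicate 3 (vertical axis) against the log2 difference of KO antimiR-21 and KO PBS fitted on the 8 knockout libraries (horizontal axis), 1 point per locus. Loci at an unadjusted p under 0.01 (purple) lie mostly in the upper right and lower left, 288 of 320 and 198 of 210.

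With the clock index added as a term, the share of loci at an unadjusted p under 0.05 went from 11.1% to 3.32%, with 314 higher and 163 lower, and 0 were called by edgeR. The median standard error of a log2 difference grew from 0.129 to 0.177, since index and treatment are closely tied in these libraries. The median log2 difference of the mitosis list was then -0.22 and of the fasting and glucocorticoid list 0.01. That of interstitial matrix was -0.27, of cytokine and NF-kB response genes -0.30 (-0.31 without the term), of tubular injury -0.21 and of T and NK cell markers -0.66. Fatty acid oxidation and PPAR-alpha targets had a median of 0.09, xenobiotic metabolism 0.10 and adipocyte markers -4.21. Without the term these medians were 0.17, 0.26 and 1.30, and that of T and NK cell markers -0.46. Cdpf1/Ppara was at 0.22 in place of 0.68. The evening genes, at 0.12, are parts of the index itself, so their value follows from adding it. The 15 higher loci kept their sign with a median of 0.35 in place of 0.64, and all 15 had an unadjusted p under 0.05. The 15 loci of either direction were ranked on these same libraries, so this is not independent support. Nr1d2, among the 15 higher, is itself a part of the index. Hpd was at 0.93, Ang/Rnase4 at 0.45, Rnf167 at 0.36, Itch at 0.29 and Cyp27a1 at 0.28 on the log2 scale. The 15 lower loci also kept their sign, with a median of -0.44 in place of -0.60 and 10 at that p, among them Mfap4 at -0.81, Zfp239 at -0.68 and Steap3 at -0.44. Among the loci of largest difference, Car11/Sphk2 was at 0.08, Cyp27b1 at 0.51, Kif14 at -0.30 and Ccnb1 at -0.44. A difference in clock phase and an effect of treatment cannot be told apart in these libraries.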

How the data were processed

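Messenger RNA of whole kidney was sequenced in 11 libraries (150 ng of total RNA, TruSeq RNA v2, per the labels' protocols), a kit that does not mark strand. For each library the authors deposited estimated counts per named gene or unnamed locus in steps of 0.5, without normalization, per the file headers. A deposited matrix of log2 values by the authors served only as an alternative. Build mm10, the aligner STAR, HTSeq 0.5.4p5, limma, SAMtools and FastQC appear in the submitters' processing notes. Not given in the sources used here were the aligner's version and the annotation.

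Each file had 24914 rows. Names with identical counts in all libraries (total of at least 50) were joined into 1513 joint loci, and counts were rounded to whole numbers. Totals per library were 22.4 to 49.7 M as deposited and 17.9 to 39.7 M after joining. edgeR 4.0.16 (R 4.3.3; TMM, filterByExpr, 14380 loci, robust quasi-likelihood) was fitted to all 11 libraries with 3 groups and a term for Ddx3y above 5 CPM, added because that status divides the libraries. Tests were two-sided, adjusted by Benjamini-Hochberg at 0.05. The biological coefficient of variation was 0.14. The code was tested on simulated counts. CPM in the text are per total of the tested loci scaled by TMM, and list deviations use log2 CPM with a prior count of 2.

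Comparisons were by group labels. Named loci were, per direction, the 15 of smallest p with a mean of at least 1 CPM, the 5 of largest difference among those with p under 0.01 and separated ranges, the 8 of smallest p at 100 CPM or more, the extreme members of each list described, Col4a3 and Y-linked loci. Unnamed and model loci were passed over (3 higher and 3 lower). Members and lists were chosen with earlier results of these data known. Alternatives were DESeq2 1.42.0, limma-voom (limma 3.58.1), other scalings, filters and terms, and each library left out. Coordinates and UTRs are from GENCODE vM21 on GRCm38, the build of mm10. Results of some genes are not reported here.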

Additional observations from a re-analysis of the deposited data

Results flagged for a closer look

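In 10 of the 102 groups of 4 libraries examined for a library apart from the other 3, 1 library stood out. Chance gives about 1 in 20 for independent values. The loci examined, clock genes among them, vary together, so 10 of 102 cannot be read against that rate. KO antimiR-21 replicate 3 was the library apart in 5 of the 10, 3 of these clock genes. Cyp27a1 was at 42.6 CPM there against 65.2 to 67.8 CPM in the other treated libraries, Car11/Sphk2 at 145 CPM against 302 to 350 CPM, Tef at 346 CPM against 684 to 752 CPM and Hlf at 106 CPM against 190 to 208 CPM. Arntl, of the morning arm, was at 18.9 CPM there against 4.28 to 5.47 CPM. KO antimiR-21 replicate 4, the treated library with Y-linked reads, stood apart for Golt1b at 19.6 CPM against 13.9 to 14.7 CPM and for Steap3 at 27.5 CPM against 31.2 to 31.6 CPM. KO PBS replicate 3 was high for the mitotic genes Ccnb1, 12.7 CPM against 7.21 to 7.69 CPM, and Hmmr, 21.1 CPM against 13.4 CPM in the other 3. KO PBS replicate 2 was low for Per3, 29.0 CPM against 40.3 to 40.4 CPM.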

How the results depend on the processing

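Against 0 higher and 0 lower calls by edgeR, DESeq2 called 183 and 111 loci, and a fit with the replicate block called 154 and 85. Leaving out single libraries gave 0 to 205 higher and 0 to 89 lower calls, with 205 and 89 without KO antimiR-21 replicate 3, 1 and 0 without KO PBS replicate 4, and 0 without each of the other 6. Every other setting also called 0, and the cause of the differences was not tested. Replicate numbers share no stated source: the residuals of same-numbered knockout libraries correlated at -0.08, 0.03, 0.24 and -0.46, so the numbers were not taken as pairs, and 1 of 4 treated libraries correlated best with its own number. The replicate block brought 29 of the 40 loci named for their p or their size past the threshold. All 40 kept their direction in all 20 settings. They were chosen from these same libraries, so this is not independent support. Some other loci quoted changed sign with the clock index as a term. Their log2 difference was then 0.18 for Npas2, 0.14 for Arntl, -0.43 for Cry1, -0.03 for Angptl4, -5.81 for Ucp1 and 0.12 for Col4a3/Col4a4. The interaction of treatment with Y-linked status called 0 loci by edgeR (smallest adjusted p 0.258), with 1819 (12.6%) at an unadjusted p under 0.05. With 1 treated library with Y-linked reads, differences within that class rest on that library.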
